A study of Mus musculus with 2 samples.

Results

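Bone morphogenetic proteins (BMPs) are secreted growth factors, and the genes described here are ligands of that family and secreted proteins that bind or modulate them. The set holds 9 of the 32287 features of the count matrix: the ligand genes Bmp4, Bmp5 and Gdf10, and the antagonist or modulator genes Grem1, Bmper, Fst, Fstl1, Nog and Chrdl1. All 9 were chosen with their levels in these cells already known, so the levels below are a description and support nothing. The cells were obtained from the tibialis anterior and gastrocnemius muscles of S100GFP transgenic mice, labelled WT, at 2 months of age, 7 days after sciatic nerve crush. In these mice green fluorescent protein is driven by the S100B promoter, and viable cells were sorted by fluorescence. The labels name a GFP+ and a GFP- fraction, each sequenced as 1 droplet library with 3′ tags, and the counts of the GFP- fraction were not analysed here. The GFP+ group therefore holds 1 library with no replicate and no uninjured control, so no test was made, and every interval given covers counting error only. Whether the library came from 1 animal or from pooled animals could not be settled, since the sources differ.

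BMP ligands bind pairs of type I and type II serine/threonine kinase receptors, which phosphorylate SMAD transcription factors and raise targets such as the Id genes. Secreted antagonists hold ligands away from these receptors, so the supply of signal depends on which cells make ligand and which make antagonist. In skeletal muscle, fibroblasts of the interstitium and tenocytes of the tendon are both sources of matrix and of secreted factors, and BMP signalling is known for sustaining muscle mass after denervation.

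Of 36400 barcodes, 18528 had at least 2000 UMIs (unique molecular identifiers, counts of distinct molecules), over 200 genes and under 10% mitochondrial counts, with a median of 4363 UMIs. Summed UMIs of marker genes placed 10374 of them in a class. Most of these, 6540, were monocytes and macrophages, although the sort was for GFP. Fibroblasts numbered 2383 (22679948 UMIs) and tenocytes 589 (5546803 UMIs). Of the genes in the gate lists, Pdgfra was at 462.7 counts for each 1000000 UMIs of the class (CPM) in fibroblasts and 55.89 CPM in tenocytes. Tnmd, a tenocyte gene, was at 1519.6 CPM in tenocytes and 8.598 CPM in fibroblasts. The fibroblast list of 8 genes, also used as a gate, did not separate the classes. Its sum was 34031.7 CPM in tenocytes and 30430.7 CPM in fibroblasts. The tenocyte list was at 22650.7 and 132.5 CPM. The gates impose that contrast, since for each 10000 UMIs they asked for at least 64 of this list in tenocytes and under 16 in fibroblasts. Within the fibroblasts, gates on subtype markers gave 558 Pi16 Dpp4 cells, 230 Inmt cells, 292 Smoc2 Cxcl14 Hsd11b1 cells and 172 Dkk2 Lsamp cells, while 953 passed no subtype gate and 164 passed several. The libraries of the GFP+ and GFP- fractions share 372 cell barcodes, 22 of them among the fibroblasts and 6 among the tenocytes.

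**Figure D1:**
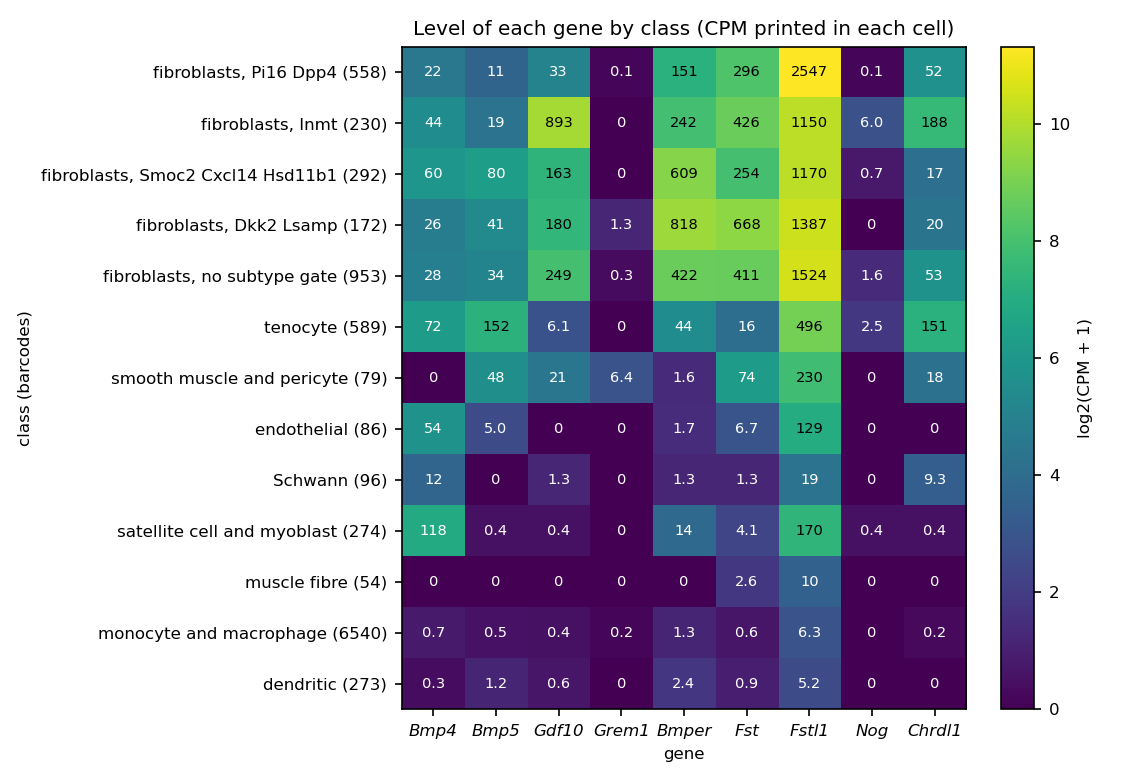
Level of each gene (columns) in each of 13 classes of at least 50 barcodes (rows, with the number of barcodes), as CPM printed in the cell and as log2(CPM + 1) by colour. Gdf10 stands at 893.4 CPM in Inmt fibroblasts, Bmper and Fst are highest in Dkk2 Lsamp fibroblasts, a lead lost for both with gates that ask for 2 times the marker UMIs, Bmp5 is highest in tenocytes and Bmp4 in satellite cells and myoblasts.

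The letters just upstream of the starts of Gdf10 and Bmp5 are shown because these ligands lie at opposite ends of the fibroblast to tenocyte comparison. RefSeq promoter sequences (GRCm38.p6) were found for 6 of the 9 genes. The 250 bases before the start are printed 5′ to 3′ on the strand of the gene, and CG dinucleotides are in capitals.
Gdf10, chr14:33923337-33923586, plus strand: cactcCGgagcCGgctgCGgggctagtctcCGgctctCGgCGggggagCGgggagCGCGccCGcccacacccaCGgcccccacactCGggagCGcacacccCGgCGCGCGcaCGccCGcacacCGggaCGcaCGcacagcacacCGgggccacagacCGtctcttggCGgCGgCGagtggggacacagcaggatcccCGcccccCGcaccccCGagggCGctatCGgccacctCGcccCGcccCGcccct
Bmp5, chr9:75775115-75775364, plus strand: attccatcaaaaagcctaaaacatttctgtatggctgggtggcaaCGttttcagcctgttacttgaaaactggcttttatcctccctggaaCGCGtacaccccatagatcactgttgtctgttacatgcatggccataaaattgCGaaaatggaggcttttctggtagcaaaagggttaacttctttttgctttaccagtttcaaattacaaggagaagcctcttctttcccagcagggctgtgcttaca
The Gdf10 stretch held 35 CG dinucleotides, and 2.974% of 32851 promoters held as many or more. The Bmp5 stretch held 4, and 44.42% of promoters held as few or fewer. TATAAA and CCAAT, searched on both strands, were in neither stretch, while 12.37% of all promoters held TATAAA and 33.85% held CCAAT.

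Gdf10, the gene of a ligand related to BMP3 (chromosome 14, 33645273 to 33659940 in GRCm39), was found mostly in fibroblasts. Its level was 893.4 CPM in Inmt fibroblasts (95% interval 846.2 to 942.6), 249 CPM in fibroblasts with no subtype gate, 180.2 CPM in Dkk2 Lsamp cells, 162.6 CPM in Smoc2 Cxcl14 Hsd11b1 cells and 32.52 CPM in Pi16 Dpp4 cells. Tenocytes stood at 6.13 CPM, and monocytes and macrophages, given as the background of free RNA, at 0.4124 CPM. Inmt cells stood apart from every other class, while Dkk2 Lsamp and Smoc2 Cxcl14 Hsd11b1 cells did not differ beyond their counting error (log2 ratio 0.15, interval -0.05 to 0.34). Earlier results of these data had named the Inmt subtype by Gdf10 too, so the lead of Inmt cells was known in advance. After each barcode was thinned to 2000 UMIs, 73.91% of Inmt cells held a Gdf10 UMI (85.65% unthinned), against 10.04% of Pi16 Dpp4 cells and 1.528% of tenocytes. Of all Gdf10 UMIs in classed barcodes, 98.35% lay in fibroblasts.

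Bmp5, a ligand known for its role in skeletal patterning (chromosome 9, 75682638 to 75807592), lay the other way between fibroblasts and tenocytes. It was at 152.3 CPM in tenocytes (142.2 to 163), at 80.22 CPM in Smoc2 Cxcl14 Hsd11b1 fibroblasts (70.1 to 91.39) and at 48.18 CPM in smooth muscle cells and pericytes (32.5 to 68.77). Among the fibroblast subtypes with at least 50 barcodes it was lowest in Pi16 Dpp4 cells, at 11.34 CPM, which were also the lowest of these in Gdf10. In tenocytes 23.09% of thinned barcodes held a Bmp5 UMI, against 5.162% of fibroblasts and 0.1376% of monocytes and macrophages. In Smoc2 Cxcl14 Hsd11b1 cells 77.43% of the Bmp5 UMIs lay in the tenth of cells that held most, against 46.63% in tenocytes.

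Bmp4, a ligand of early development (chromosome 14, 46620250 to 46636745), was highest outside the stroma. Satellite cells and myoblasts, the muscle stem cells and their progeny, stood at 118.2 CPM (104.9 to 132.6), tenocytes at 72.47 CPM (65.56 to 79.92) and Smoc2 Cxcl14 Hsd11b1 fibroblasts at 59.99 CPM (51.28 to 69.74). Bmp5 and Gdf10 were near 0 in satellite cells and myoblasts, with 1 UMI each in 274 barcodes. Those barcodes held Pax7 at 283.5 CPM and Pdgfra at 0.8207 CPM, although Dpt, a fibroblast marker, was at 374.6 CPM. Whether fibroblast RNA has a part in their Bmp4 level was not tested. Endothelial cells stood at 53.61 CPM, and at 38.1 CPM without the cell that held most.

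Among the antagonists, Bmper, which binds BMPs outside the cell and can restrain or promote their signal (chromosome 9, 23134325 to 23396509), was highest in Dkk2 Lsamp fibroblasts at 817.9 CPM (780.9 to 856.2). Smoc2 Cxcl14 Hsd11b1 cells followed at 608.7 CPM (580.3 to 638.3), fibroblasts with no subtype gate at 422.3 CPM, Inmt cells at 241.8 CPM and Pi16 Dpp4 cells at 151 CPM. Each of these steps exceeded its counting error. Their first 2 places depended on the gate, since with gates that ask for 2 times the marker UMIs Dkk2 Lsamp cells numbered 30 and their log2 ratio to Smoc2 Cxcl14 Hsd11b1 cells was -0.06 (-0.26 to 0.14). Tenocytes stood at 43.81 CPM and satellite cells and myoblasts at 13.54 CPM. Whether fibroblast RNA has a part in the latter was not tested. Earlier results of these data had named the Dkk2 Lsamp subtype by Bmper too, so the high Bmper level there was known in advance.

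Fst encodes follistatin, which binds activins, myostatin and some BMPs (chromosome 13, 114588731 to 114595521). It was at 667.6 CPM in Dkk2 Lsamp cells (634.2 to 702.3), 426.4 CPM in Inmt cells and 411.4 CPM in fibroblasts with no subtype gate, and the last 2 did not differ beyond their counting error. With gates that ask for 2 times the marker UMIs, the log2 ratio of Dkk2 Lsamp to Inmt cells went from 0.65 (0.51 to 0.78) to 0.07 (-0.19 to 0.33), so this lead was lost. Pi16 Dpp4 cells stood at 296.1 CPM, Smoc2 Cxcl14 Hsd11b1 cells at 253.8 CPM and tenocytes at 16.05 CPM. Smooth muscle cells and pericytes stood at 73.87 CPM, but 32 of their 46 UMIs lay in 1 cell, and without it the level was 22.82 CPM.

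Fstl1, a follistatin-related glycoprotein (chromosome 16, 37597105 to 37656876), was the most abundant of the 9 and the most widely spread. Pi16 Dpp4 fibroblasts stood at 2546.8 CPM (2508.7 to 2585.3), the other fibroblast groups with at least 50 barcodes between 1149.9 and 1523.6 CPM and tenocytes at 496 CPM. Satellite cells and myoblasts at 170.3 CPM and endothelial cells at 129 CPM lay above the 6.328 CPM of monocytes and macrophages, a background kept low by its gate. Whether fibroblast RNA has a part in these levels was not tested. Of the 9 genes, Fstl1 was the one whose highest class was Pi16 Dpp4.

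Chrdl1, a chordin-like antagonist (chromosome X, 142068670 to 142177258), joined Inmt fibroblasts with tenocytes. It was at 188.5 CPM in Inmt cells (167.2 to 211.8) and at 150.7 CPM in tenocytes (140.7 to 161.3), with 52.78 CPM in fibroblasts with no subtype gate and 52.36 CPM in Pi16 Dpp4 cells. The log2 ratio of Inmt cells to tenocytes was 0.32 (0.12 to 0.52), but 0.17 (-0.02 to 0.36) with barcodes of several gates kept. Dkk2 Lsamp and Smoc2 Cxcl14 Hsd11b1 cells, which led for Bmper, stood at 19.62 and 16.68 CPM. Across the fibroblasts, which mix these subtypes, 17.23% of fibroblasts with a Gdf10 UMI held a Chrdl1 UMI after thinning, against 4.673% of those without. Within the Inmt cells alone the shares were 36.47% (29.24 to 44.19) of 170 cells with Gdf10 and 10% (3.759 to 20.51) of 60 without. The shares were 12.9% (5.739 to 23.85) against 1.304% (0.2698 to 3.764) in Smoc2 Cxcl14 Hsd11b1 cells and 10.97% (7.762 to 14.93) against 4.416% (2.954 to 6.32) in cells with no subtype gate. The intervals overlapped in Dkk2 Lsamp cells, at 5.172% (1.08 to 14.38) against 4.386% (1.439 to 9.939), and in Pi16 Dpp4 cells, at 8.929% (2.963 to 19.62) against 6.574% (4.568 to 9.108). This is 1 pair of many, and other pairs differed too. Across the fibroblasts 12.27% of cells with Bmp4 held Bmp5, against 4.64% of those without. Within the Inmt cells Bmper went the other way, held by 22.35% of cells with Gdf10 and 43.33% of those without.

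Grem1 and Nog, the genes of gremlin and noggin (chromosome 2, 113576509 to 113589000, and chromosome 11, 89191464 to 89193158), were close to absent at this depth. Grem1 had 23 UMIs in all 36400 barcodes. Of the 20 in classed barcodes, 10 lay in monocytes and macrophages, and the 4 in smooth muscle cells and pericytes came from 1 cell. Nog had 40 UMIs in classed barcodes, 14 of them in tenocytes and 9 in Inmt fibroblasts, 5 of these in 1 cell, and none in monocytes and macrophages, which allows up to 0.04758 CPM there, the level that 3 counts would give. No full order of classes can be read for either gene on so few UMIs.

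**Figure D2:**
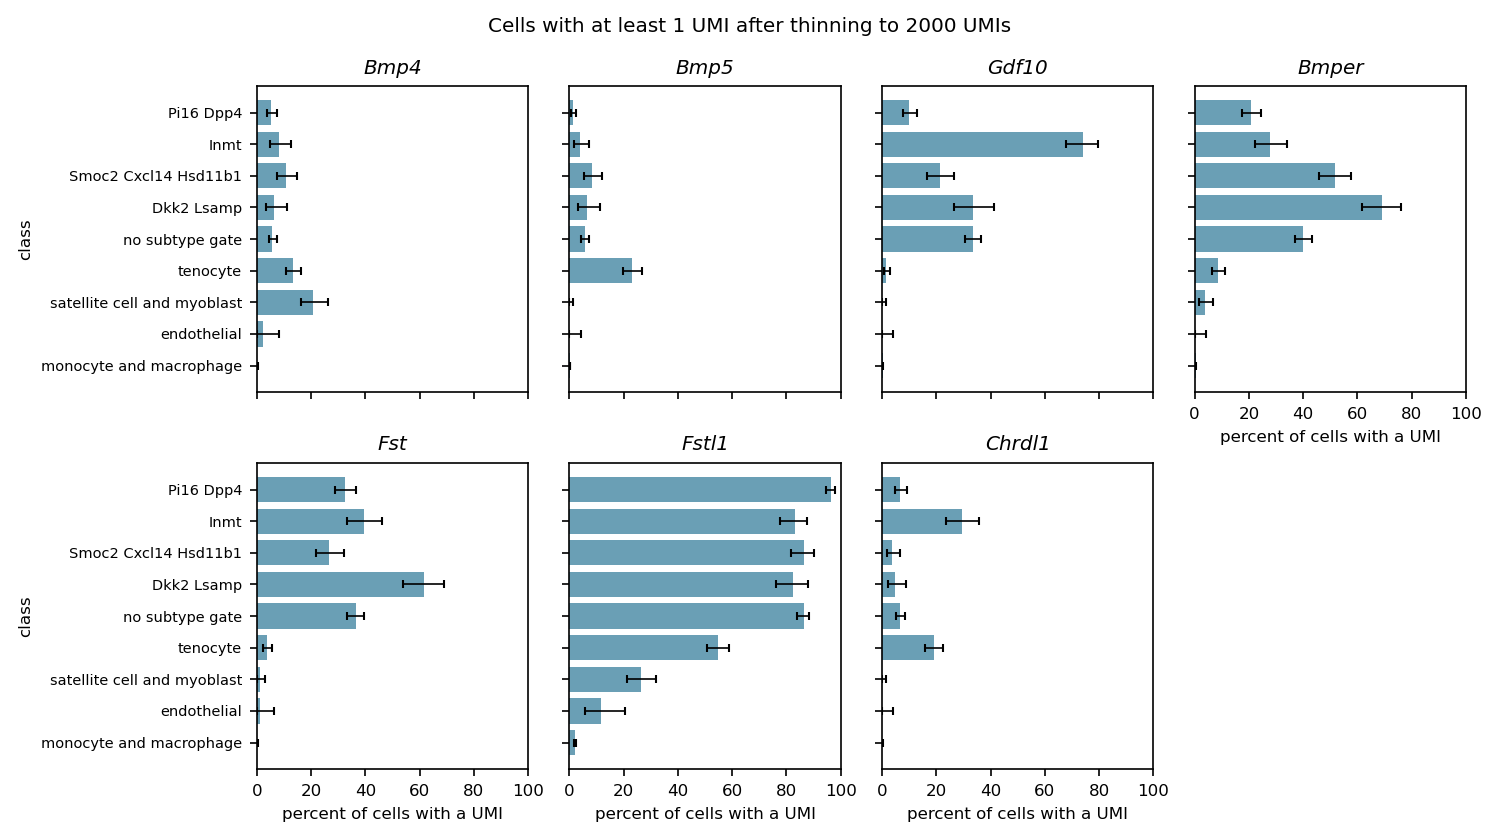
Percent of barcodes with at least 1 UMI of each gene (x axis) in 9 classes (y axis), after thinning each barcode to 2000 UMIs, with exact 95% binomial intervals. Gdf10 was held by 73.91% of Inmt fibroblasts, Bmper by 69.19% and Fst by 61.63% of Dkk2 Lsamp fibroblasts, and monocytes and macrophages stayed at or below 1.911% for every gene shown.

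Fibroblasts and tenocytes were then compared directly. Against tenocytes, fibroblasts were higher in Gdf10 by a log2 ratio of 5.05 (4.56 to 5.58), in Fst by 4.56 (4.26 to 4.88), in Bmper by 3.18 (3.00 to 3.37) and in Fstl1 by 1.81 (1.76 to 1.87). Tenocytes were higher in Bmp5, with a log2 ratio of -2.04 (-2.18 to -1.90), in Chrdl1, with -1.52 (-1.65 to -1.39), and in Bmp4, with -1.15 (-1.32 to -0.97). For Nog the ratio was -1.20 (-2.19 to -0.14) on 25 UMIs in fibroblasts and 14 in tenocytes, an interval that included 0 under 3 of the alternative settings, and Grem1 had none in tenocytes. By count, 2 of 3 ligands were higher in tenocytes and 3 of the 4 antagonists with enough UMIs in fibroblasts. The third ligand, Gdf10, had the largest ratio of all, towards fibroblasts. Of the 7 genes with at least 50 UMIs over both classes, 4 were at least 2-fold higher in fibroblasts, as were 12.7% of all 13143 genes so measured, and 3 were at least 2-fold higher in tenocytes, as were 8.24% of all genes. The same 7 were at least 2-fold higher in fibroblasts than in monocytes and macrophages, against 23.9% of all genes, and in tenocytes than in monocytes and macrophages, against 22.7%. The median log2 ratio of fibroblasts to tenocytes was 1.81 for the 7 genes and 0.00 for all genes measured. The genes were chosen on these contrasts, so nothing is read from these values. In barcodes with at least 1000 but under 2000 UMIs, which lay below the minimum, the directions were the same for these 7 genes but the ratios were smaller, 1.39 for Gdf10, 1.37 for Fst, 1.44 for Bmper and -1.48 for Bmp5.

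**Figure D3:**
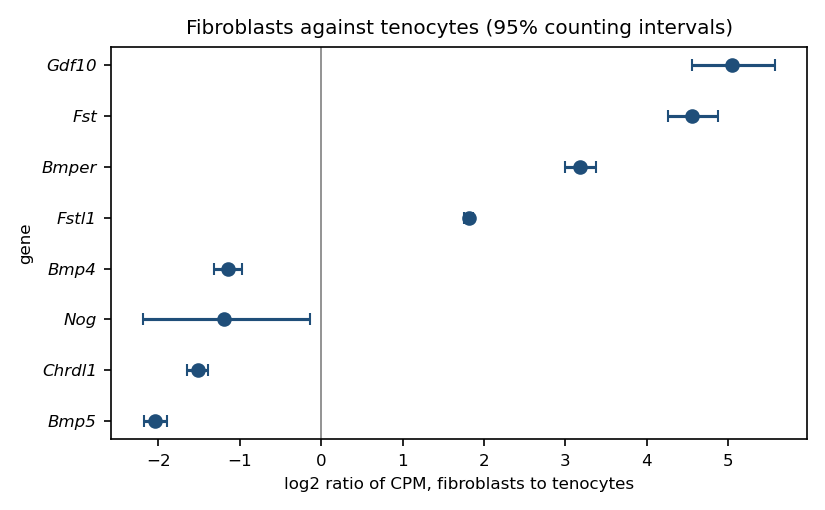
Log2 ratio of CPM in fibroblasts to CPM in tenocytes (x axis) for each gene with UMIs in both classes (y axis), with exact 95% counting intervals. Gdf10, Fst, Bmper and Fstl1 lie to the right of 0 and Bmp5, Chrdl1, Nog and Bmp4 to the left.

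Summed by role, the ligands Bmp4, Bmp5 and Gdf10 reached 956.1 CPM in Inmt fibroblasts, 230.9 CPM in tenocytes and 65.93 CPM in Pi16 Dpp4 cells. The antagonists that bind ligand (Grem1, Bmper, Fst, Nog and Chrdl1) reached 1506.4 CPM in Dkk2 Lsamp fibroblasts, 862.8 CPM in Inmt cells, 499.7 CPM in Pi16 Dpp4 cells and 213.1 CPM in tenocytes. The log2 ratio of the ligand to the antagonist sum was 0.15 (0.04 to 0.26) in Inmt cells and 0.12 (0.00 to 0.23) in tenocytes, and in the other fibroblast groups shown the antagonist sum was the larger. The ratio in Inmt cells rests on Gdf10, which gave 1341 of their 1435 ligand UMIs. Bmp4 and Bmp5 stood there at 43.97 and 18.65 CPM, far below the antagonist sum. Over the genes summed, the ligand sum was the larger in satellite cells and myoblasts, at 119 against 18.47 CPM, and in endothelial cells, at 58.63 against 8.376 CPM. The sums hold no other gene of the pathway. In satellite cells and myoblasts the ligand gene Bmp6 was at 214.6 CPM, Chrdl2, a chordin-like antagonist, at 153.9 CPM and Crim1, which binds BMPs, at 91.51 CPM. In endothelial cells Bmp6 was at 160.8 CPM, Crim1 at 366.9 CPM and Chrdl2 at 3.351 CPM. The sums also leave out Fstl1, which alone was above the ligand sum in Inmt cells (1149.9 CPM) and tenocytes (496 CPM). Leaving out Fstl1, 64.53% of Dkk2 Lsamp and 62.61% of Inmt cells held at least 2 of the genes after thinning, against 14.87% of Pi16 Dpp4 cells and 14.77% of tenocytes. UMI counts do not measure secreted protein, and 3′ counts do not correct for capture that differs between genes.

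**Figure D4:**
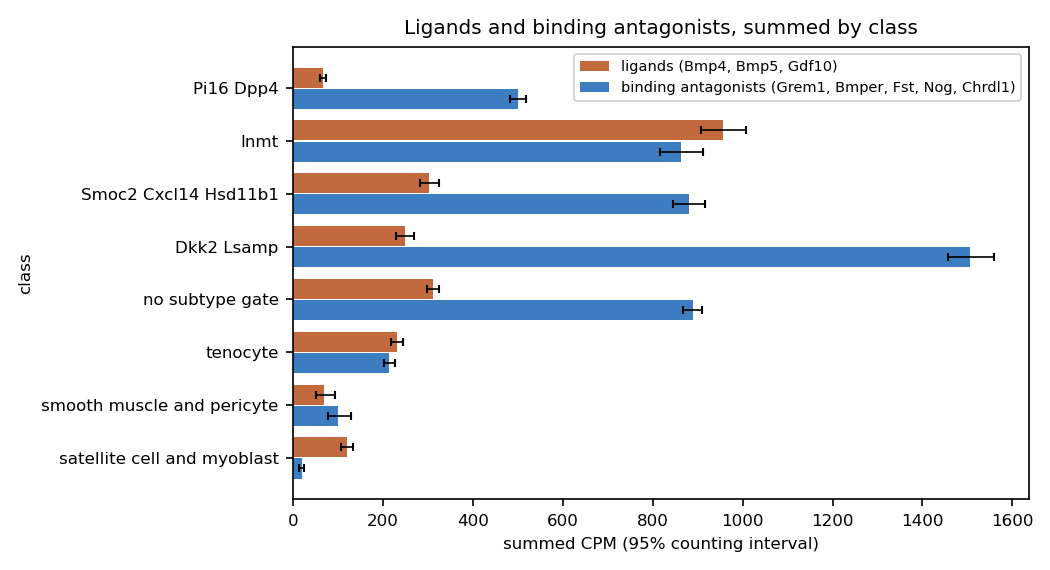
Summed CPM (x axis) of the ligands Bmp4, Bmp5 and Gdf10 and of the antagonists Grem1, Bmper, Fst, Nog and Chrdl1 in 8 classes (y axis), with 95% counting intervals. The ligand sum is highest in Inmt fibroblasts (956.1 CPM, of which Gdf10 gives 893.4 CPM) and the antagonist sum in Dkk2 Lsamp fibroblasts (1506.4 CPM).

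A further fibroblast gate, on Tenm2, Col28a1 and Smim41, was not ranked because it held 14 barcodes. In all, 5 forms were tried, and over them Gdf10 stayed between 0 and 19.85 CPM, Chrdl1 between 0 and 13 CPM and Fstl1 between 952.8 and 1265.0 CPM. The levels of Bmp4 (4.332 to 60.49 CPM), Fst (0 to 65.22 CPM), Bmp5 and Bmper turned on how the gate was drawn, and Grem1 and Nog had no UMI in any form. With 14 barcodes Bmp5 had no UMI and Bmper was at 86.64 CPM. When the gate was taken before the Smoc2 Cxcl14 Hsd11b1 gate it held 33 barcodes, with Bmp5 at 85.74 CPM and Bmper at 311.1 CPM. When Apod was added to the list it held 56 to 86 barcodes, with Bmp5 between 83.69 and 93.58 CPM and Bmper between 251.1 and 482.1 CPM.

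Over the 13 classes, the gene most like Bmp4 in log2(CPM + 1) was Mest (Pearson r = 0.958), that most like Bmp5 was Greb1l (0.952), that most like Bmper was Rbp4 (0.982) and that most like Fstl1 was Tnxb (0.983). These ranked first or second as well over a set of 15 classes that admitted the Tenm2 gate and neutrophils. For Gdf10 the gene was Gpc3 (0.960) over 13 classes, but it ranked 77 over 15, while Osr1 ranked 2 and 1. Fst was closest to C1s1 (0.984) and Chrdl1 to Col1a2 (0.943), which ranked 6 and 2 over 15 classes. The classes share 1 library and differ in depth, so these are descriptions, and none is given for Grem1 and Nog because of their few UMIs.

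Of 61 further genes of the pathway, all were in the matrix. The counts below stand against 12.7% of all genes at least 2-fold higher in fibroblasts and 8.24% in tenocytes, and several are near these shares. Among 15 other ligands, 8 had at least 50 UMIs over fibroblasts and tenocytes, of which Bmp7 was at least 2-fold higher in fibroblasts and Bmp3, Bmp6 and Inhba in tenocytes. Among 13 other secreted antagonists and modulators, 8 had enough UMIs, with Kcp higher in fibroblasts and Fstl3 in tenocytes. Of 13 measured receptors and coreceptors, Acvr1b, Acvr2a and Acvrl1 were at least 2-fold higher in fibroblasts and Bmpr1b and Bambi in tenocytes. The type I receptor gene Bmpr1b was at 261.4 CPM in tenocytes and 12.92 CPM in fibroblasts, while Bmpr1a, the gene of another type I receptor, was at 97.71 and 94.71 CPM. Acvr2a, an activin receptor gene, was at 32.99 CPM in tenocytes and 133.6 CPM in fibroblasts. Of the 3 proteases, Bmp1 and Tll1 were at least 2-fold higher in fibroblasts, and Bmp1, which cleaves chordin, was at 75.72 CPM in tenocytes and 244.3 CPM in fibroblasts. Of 14 measured signal transducers and targets, Id4 was at least 2-fold higher in fibroblasts and Id1 in tenocytes.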

How the data were processed

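Muscle cells of the GFP+ library were analysed. The authors deposited raw counts of unique molecular identifiers per gene and barcode, which the file header credits to Cell Ranger 8.0.1. The submitters' processing notes name Cell Ranger 7.1.0, Seurat 4.30 and mm10, while the study's methods name GRCm39 and GRCm38. Barcodes with at least 2000 UMIs, over 200 genes and under 10% mitochondrial counts were gated by marker UMIs for each 10000 UMIs (99 markers). Barcodes passing several gates were left out, as were classes under 50 barcodes. Levels are UMIs summed per class as CPM with exact Poisson 95% intervals, ratios have exact conditional intervals and shares exact binomial ones (scipy 1.17.1). All intervals cover counting error only. Doublets were left in, and an alternative removed the 13.78% of filtered barcodes with the highest Scrublet scores (scanpy 1.11.5). Gates and ratios were run on counts simulated from the summed profiles of classes that the gates had picked. This checks the code only, since the simulation held no doublets and no spread between cells beyond counting error. The subtype gates were not checked in this way.

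The members, lists and gates were chosen with earlier results of these data known. Gdf10 and Bmper, which had named the Inmt and Dkk2 Lsamp subtypes there, were left out of those gates. Gate thresholds were set from marker counts, but 5 forms of the Tenm2 gate were tried, 3 of them first tried after members' levels by class had been seen. A form and a class minimum of 30 barcodes adopted at that point were withdrawn, and the form (without Apod) and minimum used before then were restored. The text names all members, up to 5 pathway genes of each role (Chrdl2 was added after its values were seen) and up to 3 genes most like each member, picked by level and correlation, and pathway genes where a count is 5 or fewer. A pathway gene that this rule names is not reported here. Positions are from GENCODE M39 (GRCm39), promoter letters from RefSeq (GRCm38.p6).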

Additional observations from a re-analysis of the deposited data

How the results depend on the processing

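No paired analysis was possible because each group holds 1 library. Settings changed 1 at a time were a minimum of 5000 or 1000 UMIs, gates asking for 2 times the marker UMIs, Scrublet doublets removed, barcodes of several gates kept and a filter of over 500 genes and under 5% mitochondrial counts. Chosen after seeing the data were barcodes of at least 1000 but under 2000 UMIs alone, a cap of 8 on myeloid marker UMIs and the Tenm2 gate taken first. Every fibroblast to tenocyte log2 ratio that could be computed kept its sign, but for Nog the interval included 0 with over 500 genes (-0.22, -1.65 to 1.53), at 1000 UMIs (-1.95 to 0.05) and with 2 times the marker UMIs (-1.87 to 0.22). At 5000 UMIs it was 6.07 for Gdf10, 3.59 for Bmper, 5.07 for Fst and 1.91 for Fstl1, and at 1000 UMIs 3.90 for Gdf10, 2.95 for Bmper and 4.00 for Fst. With 2 times the marker UMIs it was 6.77 for Gdf10, 3.64 for Bmper, 2.05 for Fstl1 and -1.85 for Bmp5. With over 500 genes it was 1.72 for Fstl1 and -1.34 for Chrdl1. With a cap of 8 it was 5.59 for Gdf10, 3.53 for Bmper, 4.94 for Fst and 1.91 for Fstl1. These shallow barcodes gave -0.77 for Bmp4, -1.48 for Bmp5, 1.39 for Gdf10, 1.44 for Bmper, 1.37 for Fst, 1.28 for Fstl1 and -0.94 for Chrdl1, with 496 genes at least 2-fold higher in fibroblasts and 200 in tenocytes, against 1667 and 1083. With 2 times the marker UMIs the lead of Dkk2 Lsamp over Smoc2 Cxcl14 Hsd11b1 for Bmper was lost (-0.06, -0.26 to 0.14), as was that over Inmt for Fst (0.07, -0.19 to 0.33). With barcodes of several gates kept, the interval for the lead of Inmt over tenocytes in Chrdl1 included 0 (0.17, -0.02 to 0.36). The causes were not tested. Depth limits Grem1 and Nog, and the 0 UMIs of Grem1 in tenocytes allow up to 0.5409 CPM (3 counts).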

Other observations

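Id1, a transcriptional regulator raised by BMP signalling, was at 787.4 CPM in endothelial cells, 232.7 CPM in satellite cells and myoblasts, 85.45 CPM in tenocytes and 29.54 CPM in fibroblasts. Id3, a relative of Id1, was at 1827.5 CPM in smooth muscle cells and pericytes, 1377.5 CPM in satellite cells and myoblasts and 874.8 CPM in Inmt fibroblasts.

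Among other ligands, Bmp6 was at 214.6 CPM in satellite cells and myoblasts and 160.8 CPM in endothelial cells. Inhba, the gene of an activin subunit, was at 226.6 CPM in Schwann cells, which numbered 96, and 115.6 CPM in smooth muscle cells and pericytes.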
